A study of Mus musculus with 11 samples.

Results

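Genes were compared between 3 livers after 7 days of YAP induction and 4 control livers, which are 7 of the 11 livers measured by RNA-seq; the other 4 had 3 days of induction. All mice were on a C57BL/6 background and ate doxycycline food, for 7 days in both groups compared here. By the labels the controls carried ROSA26-rtTA-IRES-EGFP and were otherwise WT, and the induced mice carried ROSA26-rtTA-IRES-EGFP with tetYAP, which doxycycline switches on. In this model the transgene encodes a constitutively active YAP, and an albumin-driven Cre, active in hepatocytes and their precursors, releases the activator rtTA. The labels do not state whether the controls carry the Cre, and give neither sex nor age. Each library is taken as 1 mouse, and the p-values measure the spread between these livers. By Xist and the Y-linked gene Ddx3y, controls 2 and 3 and all 3 livers at 7 days were female and controls 1 and 4 male.

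YAP is a coactivator that the Hippo kinases keep in the cytoplasm of quiescent cells. In the nucleus it works mainly through TEAD transcription factors and switches on genes for division, the cytoskeleton and the matrix. The adult hepatocyte rarely divides and spends its transcription on plasma proteins, detoxification, bile acids and nitrogen metabolism, in patterns that differ between the pericentral and the periportal end of the lobule.

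The deposited values are eRPKM, exon reads divided by gene length and library size, so levels of different genes can be compared per length. Whole reads were recovered from the steps of the values and gave depths of 1251396 to 5495697 reads on genes in the controls and 5312486 to 5941357 at 7 days. The reads of the genes with the most reads per kilobase hardly grew with depth. Those of other highly read genes grew, but less than depth did. Although the deepest of these livers held 4.75 times the reads of the shallowest, the highest reads per kilobase were 1281 to 1501 in every one of the 7. The eRPKM of such genes therefore stands lower in a deeper library of any group. Control liver 2, with 5495697 reads, was the control nearest in depth to the 7-day livers, and values against it alone are given as descriptions beside the fitted ones. Genes with at least 300 reads per kilobase, averaged over the 7 livers, are kept apart from the rest throughout as abundant genes. Libraries also differed in how many genes had any read, with 14630 to 18036 in the controls and 15809, 19280 and 15796 at 7 days, and the part of this in the changes of low genes was not tested.

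Among 14244 tested genes, 2561 (18.0%) were called higher at 7 days and 822 (5.77%) lower, at a limma adjusted p under 0.01 and a log2 fold change beyond 0.5. With median-ratio size factors, which bring the median of all tested genes from 0.26 to 0.025, the shares were 13.7% and 8.80%. Rises made up 75.7% of the calls with the deposited scaling, 60.9% with size factors and 50.5% with quantile normalization. Single livers weighed on the counts: 1671 rose without 7-day liver 2 and 1588 without 7-day liver 3, and 518 fell without 7-day liver 1 and 469 without 7-day liver 3. Moderately expressed genes, between 2 and 50 eRPKM, supplied most of them: 2196 of 10050 rose, 427 fell and their median log2 fold change was 0.37. Of the 923 abundant genes 39 rose and 232 fell, with a median of -0.45. The same medians between the deepest and the shallowest control, control liver 2 minus control liver 4, were 0.49 for moderate and -0.54 for abundant genes. Against control liver 2 alone the 7-day livers stood at 0.15 and -0.15. The class medians thus differed between controls of unequal depth too. Of the 232 abundant genes called lower, 200 lay more than 0.5 on the log2 scale below control liver 2 as well, and so did 582 of the 590 other genes called lower. Of the 2561 genes called higher, 2512 lay more than 0.5 above it. Control liver 2 is among the 4 controls that made the calls, so called genes tend to lie beyond it by construction. Such counts, here and below, are therefore no check on depth. A fit with only the 2 deepest controls called 1406 genes higher and 579 lower.

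**Figure D1:**
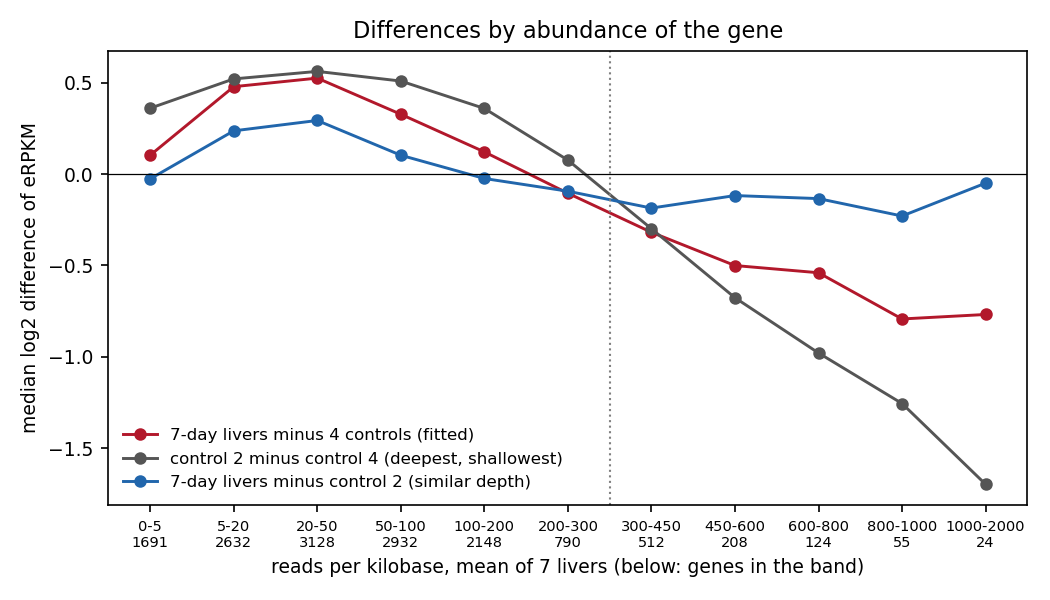
Median log2 difference of eRPKM over tested genes (vertical axis) by reads per kilobase averaged over the 7 livers (horizontal axis, number of genes under each band), for the 7-day livers against the 4 controls, for the deepest against the shallowest control and for the 7-day livers against the control of similar depth; the dotted line marks 300 reads per kilobase. In the band from 1000 to 2000 reads per kilobase the medians were -0.77, -1.70 and -0.049. Of the comparisons within that band, the 2 controls of unequal depth differed most and the livers of similar depth least. The livers of similar depth were nearer 0 in the band from 100 to 200 reads per kilobase, at -0.024.

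Genes for cell division had the highest share of rises of any list examined. Of 43 tested mitosis genes 42 were called higher and 0 lower, with a median log2 fold change of 2.77, against 0.26 over all tested genes. Of 40 replication genes 32 rose and 0 fell (median 1.91). Mki67, a marker of cycling cells, read 1.33, 3.29, 6.72 and 2.39 eRPKM in control livers 1 to 4 and 53.1, 49.3 and 32.1 in the 7-day livers. It rose by 3.67 (SE 0.71, limma adjusted p = 0.00143) on the log2 scale, with every 7-day liver above every control, as was the case for 36.7% of all tested genes. Cdk1, the kinase that drives entry into mitosis, read 0.783, 0.802, 2.11 and 0.271 eRPKM in the controls and 20.01, 17.1 and 14.3 at 7 days, a log2 fold change of 3.69 (SE 0.46, limma adjusted p = 6.9e-05). Aurora kinase B, encoded by Aurkb, and the cytokinesis factor Ect2 had log2 fold changes of 4.28 (SE 0.62, limma adjusted p = 0.000202) and 3.96 (SE 0.54, limma adjusted p = 0.000135). The helicase subunits Mcm2 and Mcm5, which unwind DNA at replication forks, rose from 2.31 eRPKM (SD 1.84, n = 4) to 28.5 (SD 5.88, n = 3) and from 2.02 eRPKM (SD 1.01, n = 4) to 30.6 (SD 4.35, n = 3). Rrm2, which makes deoxyribonucleotides, Gins2, a partner of that helicase, and Uhrf1, which carries DNA methylation through replication, had log2 fold changes of 3.35, 4.27 and 3.94 (limma adjusted p 0.00108 or lower). No control liver exceeded 3 reads of Gins2 and each 7-day liver had at least 76. The 7-day mean was 12.5-fold the level that 3 reads in every control library would give. Exo1, an exonuclease of repair and replication and a low gene, rose from 0.183 eRPKM (SD 0.0327, n = 4) to 3.69 (SD 0.506, n = 3).

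Factors that commit cells to division moved less evenly. Of 18 tested, 10 rose and 0 fell. E2f1, which activates replication genes, read 1.77, 2.07, 2.72 and 2.21 eRPKM in control livers 1 to 4 and 27.3, 29.3 and 29.6 in the 7-day livers, and rose by 3.45 (SE 0.34, limma adjusted p = 1.6e-05). Foxm1, a regulator of mitotic genes, and Myc rose by 2.93 (SE 0.59, limma adjusted p = 0.00195) and 3.09 (SE 0.64, limma adjusted p = 0.00231). Ccnd1, cyclin D1, read 10.95, 39.7, 54.2 and 13.6 eRPKM in the controls and 103, 78.9 and 101 at 7 days, and its change of 1.95 (SE 0.55, limma adjusted p = 0.0138) did not pass. Inhibitors of the cycle and targets of p53 rose alongside, with 13 of 23 called higher and 0 lower. Cdkn1a, the p21 inhibitor of cyclin-dependent kinases, read 1.12, 1.03, 0.909 and 2.1 eRPKM in the controls and 28.8, 31.1 and 26.5 at 7 days, a log2 fold change of 4.07 (SE 0.45, limma adjusted p = 3.1e-05). The secreted stress factor Gdf15 and the Akt inhibitor Phlda3 rose from 1.297 eRPKM (SD 0.335, n = 4) to 28.7 (SD 11.8, n = 3) and from 1.91 eRPKM (SD 0.254, n = 4) to 28.1 (SD 3.69, n = 3). Where a gene lost its call under an alternative fit, its log2 fold changes there follow in parentheses. Losses in a fit with the replicate block are given at the end. Foxm1 (2.77 to 2.84) lost its call without 7-day liver 1 or 2 and Myc (2.78 to 2.93) without 7-day liver 1 or 3 (limma adjusted p up to 0.0147). Mki67 (3.41), Mcm2 (3.0) and Mcm5 (3.25) did not pass with depth as a covariate, Uhrf1 (3.61 to 3.98), Foxm1 (2.82 to 3.20) and Myc (2.82 to 3.35) with depth as a covariate, with only the 2 deepest controls or in a fit of female livers and Exo1 (2.42 to 2.60) with depth as a covariate or with only the 2 deepest controls (limma adjusted p up to 0.0347). Mitosis genes that rose numbered 23 with depth as a covariate. Replication genes that rose numbered 11 with depth as a covariate and 20 with only the 2 deepest controls, in female livers or without 7-day liver 3. Entry factors that rose numbered 3 with depth as a covariate, 4 with only the 2 deepest controls, 2 in female livers, 6 after rescaling to moderate genes and 4 to 6 without control liver 1 or 7-day liver 1, 2 or 3. Inhibitor and p53 genes that rose numbered 8 with depth as a covariate or with only the 2 deepest controls.

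The promoters of the division and cholesterol genes are shown because their members moved together and share short sequences that the choice of lists did not use. Promoters of 300 bases, 250 before to 50 after the start, were taken from RefSeq (GRCm38.p6, not the mm9 build of the reads) and matched 10840 of the tested genes by symbol. Both strands were searched for CCAAT (the NF-Y box), TTTGAAA (a cell cycle homology region), TTCCCGC (an E2F-type motif), CATTCC (the TEAD core), CAAAGTC (part of an HNF4-type motif) and TGAGTCA (AP-1), and none of them contains another. CCAAT was held by 25 of 34 mitosis promoters (73.5%), by 14 of 16 of the cholesterol list (87.5%) and by 38.7% of all matched promoters. It was also frequent in pericentral (66.7% of 15), replication (62.5%) and urea cycle and amino acid promoters (53.3%), so it was not particular to the first 2 lists. TTTGAAA was held by 11 mitosis promoters (32.4%) against 4.35%. TTCCCGC was held by 15 of 32 replication promoters (46.9%) against 7.96%. Among all genes called higher and lower the shares were 37.9% and 44.4% for CCAAT, 4.23% and 5.04% for TTTGAAA, 10.1% and 4.55% for TTCCCGC, 12.5% and 13.7% for CATTCC (12.4% of all), 3.42% and 6.67% for CAAAGTC (4.05%) and 4.43% and 5.53% for TGAGTCA (3.99%). Lists were chosen with results known and these shares are descriptions. The 250 bases before the start follow, with every match to the 6 motifs in capitals and its first base given as bases before the start, for the kinase gene Cdk1 (chr10:69352913-69353162, minus strand; TTTGAAA at 15 and CCAAT on the other strand at 208, 80 and 48), Ect2 (chr3:27153879-27154128, minus strand; TTTGAAA at 114 and CCAAT at 96 and 55), Uhrf1 (chr17:56303087-56303336, plus strand; CATTCC on the other strand at 193, TTCCCGC at 48 and CCAAT at 30), the sterol gene Msmo1 (chr8:64733579-64733828, minus strand; CCAAT at 160, 96 and 55 and TGAGTCA at 127) and the YAP target Ankrd1 (chr19:36119845-36120094, minus strand; CATTCC on the other strand at 210 and 123 and CCAAT on the other strand at 98).
Cdk1: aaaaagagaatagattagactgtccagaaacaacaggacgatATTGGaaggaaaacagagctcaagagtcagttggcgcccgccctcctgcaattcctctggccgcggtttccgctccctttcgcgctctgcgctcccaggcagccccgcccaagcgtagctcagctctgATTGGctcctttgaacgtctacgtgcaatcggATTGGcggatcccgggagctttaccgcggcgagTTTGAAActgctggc
Ect2: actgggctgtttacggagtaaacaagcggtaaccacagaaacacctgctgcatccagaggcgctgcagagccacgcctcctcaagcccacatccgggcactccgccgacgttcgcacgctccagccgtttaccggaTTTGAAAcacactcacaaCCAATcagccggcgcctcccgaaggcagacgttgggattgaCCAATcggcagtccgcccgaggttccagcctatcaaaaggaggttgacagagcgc
Uhrf1: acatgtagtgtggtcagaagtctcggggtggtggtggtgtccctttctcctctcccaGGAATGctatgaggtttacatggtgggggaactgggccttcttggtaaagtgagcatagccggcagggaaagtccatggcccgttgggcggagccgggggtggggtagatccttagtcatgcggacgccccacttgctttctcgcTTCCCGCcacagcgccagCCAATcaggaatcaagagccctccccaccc
Msmo1: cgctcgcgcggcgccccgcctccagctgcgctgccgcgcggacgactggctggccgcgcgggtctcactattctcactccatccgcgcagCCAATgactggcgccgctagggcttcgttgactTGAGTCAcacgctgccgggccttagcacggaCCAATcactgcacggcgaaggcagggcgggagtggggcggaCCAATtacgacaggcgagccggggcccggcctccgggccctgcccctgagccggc
Ankrd1: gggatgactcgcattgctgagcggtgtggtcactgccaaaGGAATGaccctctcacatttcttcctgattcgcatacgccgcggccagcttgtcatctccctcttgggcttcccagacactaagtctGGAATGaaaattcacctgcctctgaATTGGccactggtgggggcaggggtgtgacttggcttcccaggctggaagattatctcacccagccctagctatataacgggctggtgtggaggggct

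Of 20 tested genes of a YAP target signature 12 rose and 2 fell. Ankrd1, a widely used YAP target, read 0.846, 0.799, 0.457 and 0.879 eRPKM in control livers 1 to 4 and 20.1, 15.4 and 17.7 in the 7-day livers, a log2 fold change of 3.88 (SE 0.25, limma adjusted p = 8.8e-07). AP-1 and immediate early factors were mostly called higher, 12 of 15, with a median of 1.80. The AP-1 subunits Fos and Jun read 1.903, 0.843, 2.696 and 1.85 eRPKM in the controls and 36.5, 20.7 and 26.1 at 7 days for Fos, and 5.23, 7.86, 7.59 and 4.62 eRPKM in the controls and 39.1, 42.99 and 42.5 at 7 days for Jun, so that no 7-day liver overlapped a control for either. Their log2 fold changes were 3.63 (SE 0.36, limma adjusted p = 1.6e-05) and 2.65 (SE 0.28, limma adjusted p = 2.5e-05), and that of the stress factor Atf3 was 2.90 (SE 0.29, limma adjusted p = 1.6e-05). Of 13 ligands, receptors and partners of the EGFR family 3 rose (23.1%), all of them ligands, and 1 fell (7.69%), shares near those of all tested genes. The ligands Nrg1, neuregulin, and Hbegf rose by 4.21 (SE 0.38, limma adjusted p = 7.8e-06) and 2.32 (SE 0.34, limma adjusted p = 0.000233). In the Notch pathway 6 of 16 rose, with the ligand Jag1 from 3.602 eRPKM (SD 0.896, n = 4) to 21.1 (SD 6.66, n = 3). The glycosyltransferase Lfng, which tunes Notch, and the target Hes1 rose by 2.87 (SE 0.34, limma adjusted p = 4.8e-05) and 1.70 (SE 0.37, limma adjusted p = 0.00336). Tnfrsf12a, the receptor of the cytokine TWEAK, was among the 5 largest rises of genes with a mean of at least 50 eRPKM and read 8.51, 8.22, 6.68 and 11.3 eRPKM in the controls and 134, 114 and 134 at 7 days. Hes1 (1.51 to 1.67) lost its call without 7-day liver 1 or 3 (limma adjusted p up to 0.0218). Hes1 (1.29 to 1.48) did not pass with depth as a covariate, with only the 2 deepest controls or in a fit of female livers (limma adjusted p up to 0.0644). AP-1 genes that rose numbered 6 with depth as a covariate or in female livers and 8 with only the 2 deepest controls or without 7-day liver 1. Notch genes that rose numbered 2 with depth as a covariate, 3 with only the 2 deepest controls, 4 in female livers and 3 to 4 without 7-day liver 1, 2 or 3.

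Some actin, integrin and laminin genes rose. Of 54 genes for actin and contractility 25 rose (46.3%) and 0 fell. Capg, which caps actin filaments, read 1.196, 3.25, 1.94 and 3.73 eRPKM in control livers 1 to 4 and 31.8, 35.1 and 46.4 in the 7-day livers, a log2 fold change of 3.73 (SE 0.31, limma adjusted p = 5.1e-06). S100a11, a calcium-binding partner of annexins, and Ezr, which ties actin to the membrane, rose by 3.58 and 3.04, and Myh9, the heavy chain of non-muscle myosin, by 1.61 (SE 0.36, limma adjusted p = 0.00349). Of 27 integrin, laminin and related genes 13 rose (48.1%) and 0 fell. The laminin chains Lamb2 and Lama5 rose from 4.004 eRPKM (SD 0.417, n = 4) to 51.4 (SD 5.18, n = 3) and from 1.56 eRPKM (SD 0.372, n = 4) to 14.7 (SD 0.685, n = 3), and Nid1, which links laminin to collagen IV, by 3.24 (SE 0.25, limma adjusted p = 2.8e-06). Of 40 collagen and matrix genes 8 rose (20%, beside 18.0% of all tested genes), 1 fell and the median was 0.12, under that of all tested genes. The rises there were led by the protease inhibitor Timp2 (3.17), Col12a1 (2.65) and the basement membrane collagen Col4a5 (2.46), each with a limma adjusted p of 0.000134 or lower.

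Some biliary and progenitor markers rose. Of 25 listed genes 21 passed the filter on low values, 7 rose (33.3%, beside 18.0% of all tested genes) and 0 fell, with a median of 0.82. Their summed level was 92.7 to 117 eRPKM in the controls and 207 to 272 at 7 days, without overlap. Bicc1, an RNA-binding protein of biliary and kidney tubules, read 1.27, 1.35, 1.26 and 1.52 eRPKM in control livers 1 to 4 and 33.6, 35.2 and 32.4 in the 7-day livers, a log2 fold change of 4.21 (SE 0.22, limma adjusted p = 2.2e-07). Of the defining biliary genes named here neither was called. Sox9, the factor of biliary cells, read 4.204, 1.45, 2.14 and 3.37 eRPKM in the controls and 5.11, 7.71 and 4.19 at 7 days (0.95, limma adjusted p = 0.0318), and the duct keratin Krt19 0.181, 1.03, 1.76 and 2.26 eRPKM in the controls and 2.37, 4.28 and 7.19 at 7 days (1.57, limma adjusted p = 0.0172). Of 29 keratin, claudin and desmosome genes 9 rose and 0 fell, and Ppl, periplakin, which anchors keratin filaments at desmosomes, rose from 7.8 eRPKM (SD 2.32, n = 4) to 43.1 (SD 5.48, n = 3). Of 15 fetal liver and liver cancer genes 5 rose and the median was 0.20. Gpc3, a cell surface proteoglycan of fetal liver, read 0.275, 0.845, 1.78 and 4.29 eRPKM in the controls and 88.8, 81.95 and 78.5 at 7 days, and Lgals1, galectin-1, and Golm1, a Golgi protein, rose by 1.95 and 1.88. Dlk2, a membrane protein with EGF repeats, had at most 2 reads in any control and at least 148 in each 7-day liver. Its 7-day mean was 34.5-fold the level that 3 reads in every control library would give. The fatty acid binding protein gene Fabp7 rose from 7.36 eRPKM (SD 2.05, n = 4) to 106 (SD 22.5, n = 3), and the class I histocompatibility gene H2-Q1, whose reads may be shared with related genes, from 8.52 eRPKM (SD 4.01, n = 4) to 111 (SD 12.4, n = 3). Myh9 (1.53 to 1.68) lost its call without control liver 4 or 7-day liver 1, 2 or 3 (limma adjusted p up to 0.0173). Myh9 (1.33 to 1.56) did not pass with depth as a covariate, with only the 2 deepest controls, in a fit of female livers or after rescaling to moderate genes and Ppl (1.99 to 2.34) with depth as a covariate or with only the 2 deepest controls (limma adjusted p up to 0.0544). Biliary markers that rose numbered 2 with depth as a covariate and 4 with only the 2 deepest controls, with quantile normalization or without 7-day liver 1. Keratin and junction genes that rose numbered 2 with depth as a covariate, 4 with only the 2 deepest controls, 6 in female livers and 5 to 6 without control liver 1 or 4 or 7-day liver 1 or 3. Collagen and matrix genes that rose numbered 4 with depth as a covariate, with only the 2 deepest controls or in female livers and 5 without 7-day liver 2 or 3.

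**Figure D2:**
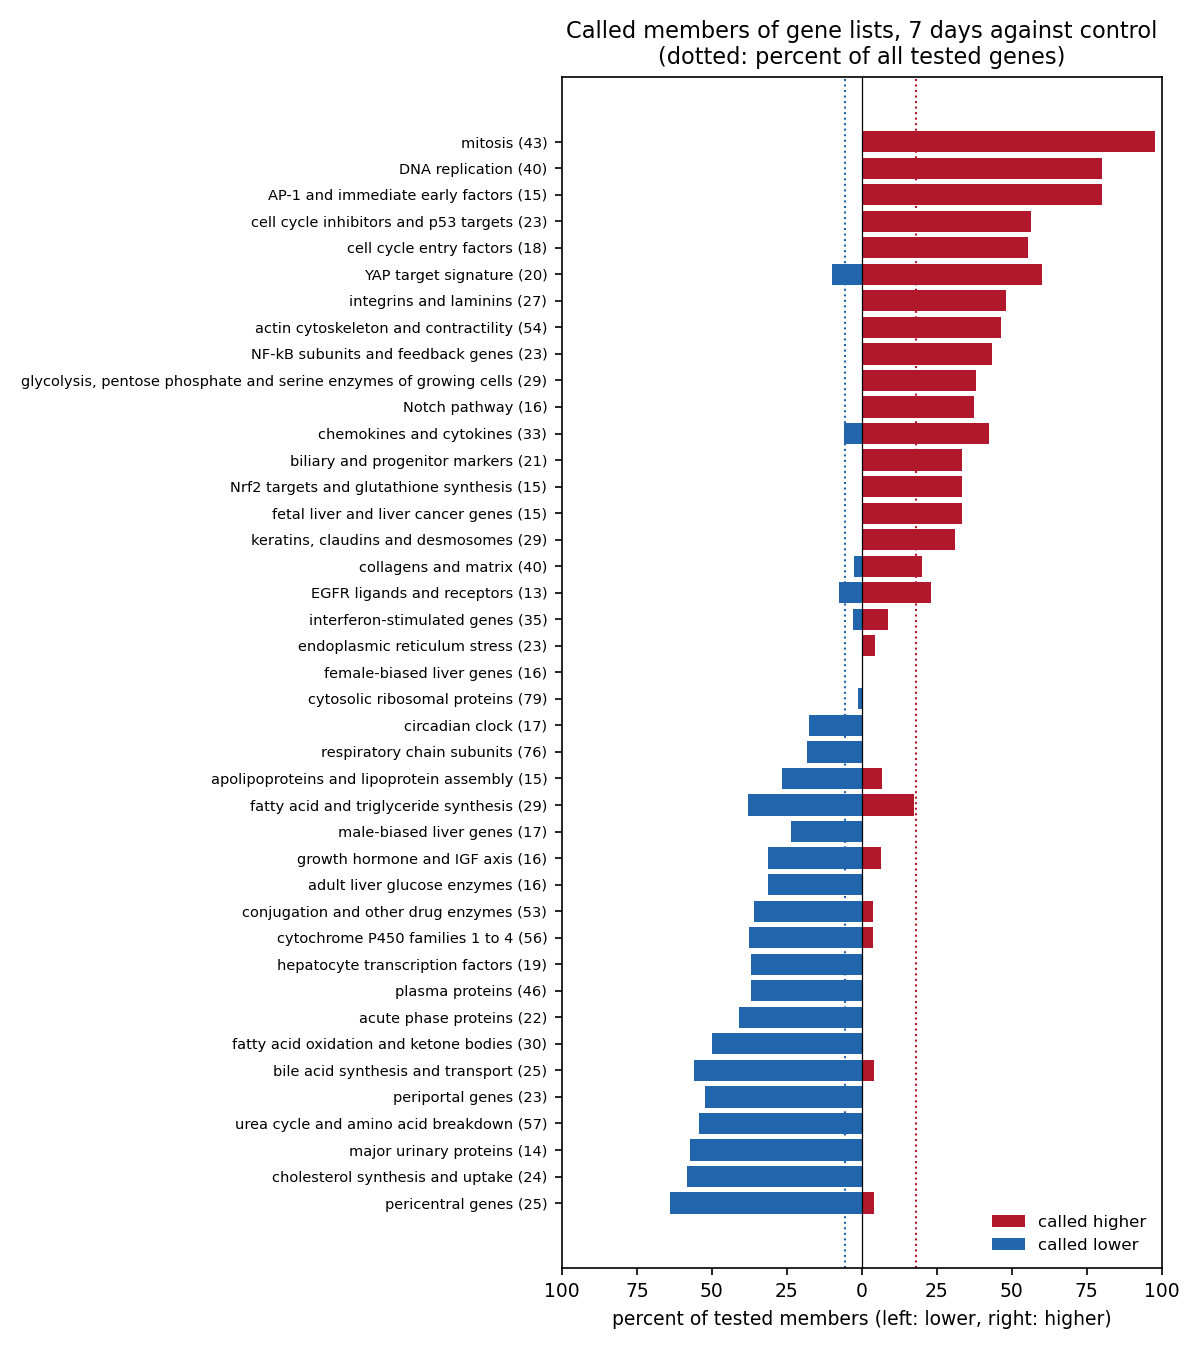
Percent of the tested members of each gene list called higher (right) or lower (left) at 7 days, for lists with at least 10 tested members, whose number stands in parentheses; dotted lines give the percent of all tested genes. Mitosis stood at 97.7% higher and pericentral genes at 64% lower, while cytosolic ribosomal proteins had 1 of 79 called.

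Many chemokine and NF-kB genes were called higher, while 9 of 22 acute phase genes were called lower and most interferon-stimulated genes were not called. Of 33 chemokines and cytokines 14 rose and 2 fell. Csf1, the growth factor of macrophages, read 5.55, 8.81, 9.49 and 6.41 eRPKM in control livers 1 to 4 and 94, 85.8 and 93.2 in the 7-day livers, a log2 fold change of 3.53 (SE 0.46, limma adjusted p = 8.9e-05). The monocyte attractant Ccl2 and the chemokines Ccl24 and Ccl6 rose by 2.93 (SE 0.69, limma adjusted p = 0.00503), 3.39 (SE 0.49, limma adjusted p = 0.000192) and 3.07 (SE 0.45, limma adjusted p = 0.000233). Among NF-kB subunits and their feedback genes 10 of 23 rose, with Tnfaip3, the A20 inhibitor, from 2.45 eRPKM (SD 0.6497, n = 4) to 19.6 (SD 2.504, n = 3). Of 22 acute phase proteins, made by hepatocytes in inflammation, 9 fell and 0 rose. The serum amyloid Saa4, an abundant gene, read 124, 116, 135 and 274 eRPKM in the controls and 23.2, 18.9 and 25.3 at 7 days, and its relative Saa1, whose copies share sequence, fell by 2.49 on the log2 scale (limma adjusted p = 0.00631). Interferon-stimulated genes had 3 rises, led by Ifit2 (2.10, limma adjusted p = 0.000399), and 1 fall, Iigp1 (-1.56, limma adjusted p = 0.000248), of 35, which with median-ratio size factors became 1 and 10. Of 15 Nrf2 targets and glutathione genes 5 rose, Hmox1, which breaks down heme, by 2.78 (SE 0.26, limma adjusted p = 1.0e-05). Ccl2 (2.39 to 2.89) lost its call without control liver 1 or 4 or 7-day liver 1 or 3 and Saa1 (-2.02 to -2.46) without control liver 3 or 4 or 7-day liver 1 or 2 (limma adjusted p up to 0.0322). Ccl2 (2.06 to 3.68) did not pass with depth as a covariate, with only the 2 deepest controls, in a fit of female livers, with quantile normalization or with a pseudocount of 0.1, Saa1 (-1.52 to -2.49) with depth as a covariate, with only the 2 deepest controls, in a fit of female livers or with a robust prior and Ifit2 (1.66) with depth as a covariate (limma adjusted p up to 0.128). Chemokines and cytokines that rose numbered 9 with depth as a covariate, in female livers, with quantile normalization or without 7-day liver 3. NF-kB genes that rose numbered 5 with depth as a covariate and 6 with only the 2 deepest controls. Acute phase genes that fell numbered 4 with depth as a covariate, 5 with only the 2 deepest controls and 4 to 6 without control liver 3 or 4 or 7-day liver 1 or 2. Nrf2 genes that rose numbered 1 with depth as a covariate or in female livers, 3 with only the 2 deepest controls and 2 to 3 without control liver 3 or 4 or 7-day liver 1, 2 or 3.

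Marker genes of macrophages rose alongside. Of 11 tested Kupffer cell markers 9 rose and 0 fell, and the 11 in the table summed to 364 to 711 eRPKM in the controls and 1322 to 1404 at 7 days. Marco, a scavenger receptor, read 3.89, 8.97, 13.4 and 2.34 eRPKM in control livers 1 to 4 and 71.8, 89.1 and 54.03 in the 7-day livers, and Timd4, a receptor for dying cells, rose from 8.68 eRPKM (SD 4.203, n = 4) to 59.97 (SD 7.47, n = 3). The defining Kupffer genes Cd5l and Clec4f are abundant and changed by 1.09 (SE 0.26, limma adjusted p = 0.00539), called, and 0.87 (SE 0.25, limma adjusted p = 0.0163), not called. Of 19 markers of recruited macrophages 13 rose, with sums of 156 to 282 eRPKM in the controls and 748 to 862 at 7 days. Trem2, a receptor of lipid-associated macrophages, read 1.52, 0.771, 0.353 and 1.36 eRPKM in the controls and 28.04, 33.7 and 27.8 at 7 days, and Itgam and Cd14 rose by 3.26 and 3.38. Of 8 tested neutrophil markers 3 rose, Mmp9, a gelatinase, by 4.61 (SE 0.48, limma adjusted p = 2.1e-05), and their sums were 19.04 to 30.9 eRPKM in the controls and 57.4 to 96.1 at 7 days. Sums of T and NK cell markers were 6.43 to 19.3 eRPKM in the controls and 14.9 to 25.9 at 7 days, with 1 of 16 called higher, and those of B and plasma cell markers 25.96 to 30.96 eRPKM in the controls and 62.4 to 75.6 at 7 days, with 1 of 8. Endothelial markers summed to 366 to 636 eRPKM in the controls and 626 to 642 at 7 days. Of 30 of them 5 rose (16.7%, beside 18.0% of all tested genes), so the list did not stand out. Cd34 rose by 1.95 (SE 0.33, limma adjusted p = 0.000601), and with median-ratio size factors 3 of the 30 rose and 3 fell. The defining endothelial genes Pecam1 and Stab2 changed by 0.64 and 0.56 and were not called. Stellate cell and myofibroblast markers had 0 rises and 2 falls of 17, with sums of 225 to 270.4 eRPKM in the controls and 209 to 256 at 7 days. Hepatocyte markers, which are all abundant genes, summed to 3232 to 9637 eRPKM in the controls and 2262 to 2629 at 7 days. Of the 16, 6 fell (37.5%, beside 25.1% of all abundant genes). Mesothelial, fat cell, red cell and pancreatic acinar lists had 16 tested members, of which 1, a hemoglobin gene, fell and 0 rose. Their sums still separated the groups for 3 of these lists: fat cell markers summed to 15.2 to 57.8 eRPKM in the controls and 59.3 to 68.6 at 7 days, red cell markers to 73.6 to 135 eRPKM in the controls and 47.4 to 52.9 at 7 days and pancreatic acinar markers to 12.2 to 14.3 eRPKM in the controls and 3.32 to 10.5 at 7 days. In whole liver a change in the number of cells of a type and a change in their RNA per cell cannot be told apart, and the part of macrophage markers in the chemokine, NF-kB and matrix results was not tested. Cd5l (0.89 to 1.12) lost its call without control liver 1, 2 or 4 or 7-day liver 1, 2 or 3 (limma adjusted p up to 0.0257). Cd5l (0.80 to 1.19) did not pass with depth as a covariate, in a fit of female livers, with size factors or after rescaling to moderate genes and Cd34 (1.57) with depth as a covariate (limma adjusted p up to 0.0421). Kupffer markers that rose numbered 3 with depth as a covariate. Endothelial markers that rose numbered 1 with depth as a covariate, 2 with only the 2 deepest controls and 3 without control liver 3 or 7-day liver 1 or 3. Hepatocyte markers that fell numbered 4 with depth as a covariate, in female livers or without control liver 3 or 7-day liver 1, 2 or 3 and 13 without control liver 2. Neutrophil markers that rose numbered 2 with depth as a covariate, with size factors, with quantile normalization, after rescaling to moderate genes or without control liver 1 or 2 or 7-day liver 1, 2 or 3 and 1 in female livers.

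**Figure D3:**
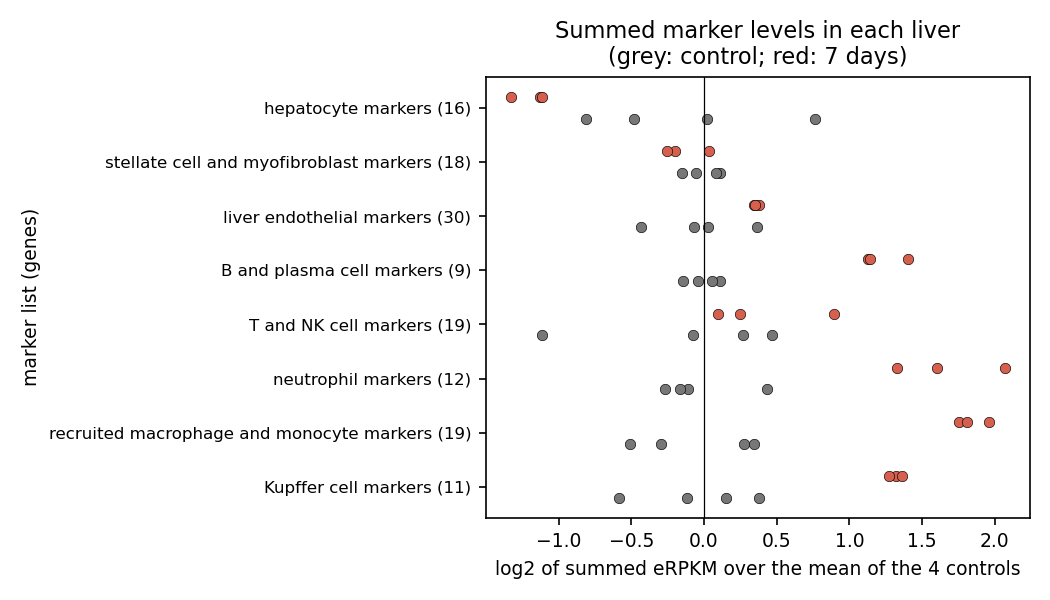
Log2 of the summed eRPKM of each marker list over the mean of the 4 controls (horizontal axis) in each control liver (grey) and 7-day liver (red), with the number of genes summed in parentheses, for lists with at least 8 tested genes. Among these lists the 7-day livers lie above all controls for the Kupffer, recruited macrophage, neutrophil and B cell lists and below all controls for hepatocyte markers. Of the B cell list only 1 of 8 tested members was called, and its median log2 fold change was 0.23, beside 0.26 for all tested genes.

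Among marker genes of both ends of the lobule, falls outnumbered rises. Of 25 pericentral genes 16 fell and 1 rose (median -2.0), and of 23 periportal genes 12 fell and 0 rose (median -0.97). Many of their members are abundant, and 8 of 16 pericentral and 2 of 6 periportal genes under 300 reads per kilobase fell. Notum, a secreted Wnt inhibitor that Wnt signals induce, read 16.8, 38.9, 29.9 and 19.8 eRPKM in control livers 1 to 4 and 1.03, 1.001 and 0.517 in the 7-day livers, a log2 fold change of -4.26 (SE 0.33, limma adjusted p = 2.8e-06). Lgr5, the receptor for R-spondins, which strengthen Wnt signals, read 4.15, 4.49, 3.36 and 2.53 eRPKM in the controls and 0.262, 0.394 and 0.154 at 7 days, a fall of 2.41 (limma adjusted p = 3.2e-05). Glul, glutamine synthetase, an abundant gene of the cells next to the central vein, read 167, 189, 298 and 318 eRPKM in the controls and 69.6, 74.9 and 67.6 at 7 days, and fell by 1.72 (limma adjusted p = 6.2e-05). The general Wnt target Axin2 changed by -0.90 (SE 0.41, limma adjusted p = 0.103) and was not called. It was 1 of 8 pericentral genes not called, among them Nkd1 (-0.61), Sp5 (-0.53), Znrf3 (-0.53) and Rnf43 (0.14). At the periportal end Hal, histidine ammonia lyase, read 147, 98.8, 108 and 142 eRPKM in the controls and 26, 19.8 and 21.1 at 7 days, and Cyp2f2 fell by 1.20 (limma adjusted p = 0.00170).

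Many detoxification, bile acid and sterol genes fell. Of 56 genes of cytochrome P450 families 1 to 4, which oxidize drugs, steroids and fatty acids, 21 fell and 2 rose. The abundant genes Cyp1a2 and Cyp2e1 read 146, 166, 216 and 242 eRPKM in the controls and 40.5, 8.104 and 14.9 at 7 days for Cyp1a2, and 301, 239, 474 and 769 eRPKM in the controls and 102, 90.96 and 108 at 7 days for Cyp2e1. Control liver 2 was above all 7-day livers for both, and their log2 fold changes were -3.43 (SE 0.40, limma adjusted p = 4.8e-05) and -2.0 (SE 0.31, limma adjusted p = 0.000329). Cyp2d40 and Cyp2a5, which have close relatives that may share their reads, fell by 4.06 and 3.29. Of 53 conjugating and other drug enzymes 19 fell and 2 rose. Aldehyde oxidase 3, encoded by Aox3, read 158, 96.4, 100.5 and 213 eRPKM in the controls and 6.61, 7.53 and 4.83 at 7 days, and the glycosyltransferase gene Ugt3a1 and the sulfotransferase gene Sult1b1 fell by 3.62 and 3.13. In bile acid metabolism 14 of 25 fell and 1 rose. Cyp7a1, the rate-limiting enzyme of bile acid synthesis, read 123, 145, 62.5 and 179 eRPKM in the controls and 15.1, 10.9 and 14.98 at 7 days, a log2 fold change of -3.09 (SE 0.30, limma adjusted p = 1.2e-05). Slc10a1, the uptake transporter for bile acids, fell from 213 eRPKM (SD 65.6, n = 4) to 49.9 (SD 8.02, n = 3), and Nr0b2, the receptor SHP that bile acids induce, by 1.98. Of 24 cholesterol genes 14 fell and 0 rose (median -1.14), 19 of them under 300 reads per kilobase. Msmo1 and Cyp51, enzymes that demethylate sterols, read 60.7, 73.1, 79.4 and 102 eRPKM in the controls and 20.2, 8.03 and 9.65 at 7 days for Msmo1, and 64.1, 110.4, 103 and 88.8 eRPKM in the controls and 19.6, 12.9 and 13.4 at 7 days for Cyp51. Idi1, which isomerizes isoprenoid building blocks, fell by 2.34. Each gene said to fall here passed with a limma adjusted p of 0.000711 or lower. Cyp2f2 (-1.10) lost its call without 7-day liver 2 (limma adjusted p up to 0.0118). Nr0b2 (-1.63 to -1.96) did not pass with depth as a covariate or in a fit of female livers and Cyp2f2 (-0.95) in a fit of female livers (limma adjusted p up to 0.0225). Periportal genes that fell numbered 8 in female livers. Cholesterol genes that fell numbered 9 without 7-day liver 2. P450 genes that fell numbered 13 with depth as a covariate and 14 with only the 2 deepest controls.

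Many enzymes of nitrogen and lipid metabolism fell as well, and some of glucose metabolism. Of 57 genes of the urea cycle and amino acid breakdown, 39 of them abundant, 31 fell (54.4%, beside 25.1% of all abundant genes) and 0 rose. Of the 18 under 300 reads per kilobase 7 fell. All 31 lay more than 0.5 below control liver 2 on the log2 scale. Oat, ornithine aminotransferase, fell from 243 eRPKM (SD 83.2, n = 4) to 43.7 (SD 5.73, n = 3). The defining members changed by -0.88 (SE 0.22, limma adjusted p = 0.00733) for tyrosine aminotransferase, called, and by -0.79 (SE 0.26, limma adjusted p = 0.0294) for Cps1, the entry enzyme of the urea cycle, not called. In fatty acid oxidation and ketone body formation 15 of 30 fell, led by Bdh1, the ketone body dehydrogenase (-2.49, limma adjusted p = 5.0e-06). Of 29 genes of fat synthesis 11 fell and 5 rose. Acacb, which makes the malonyl-CoA that restrains fat oxidation, read 14.1, 29.5, 30.4 and 11.6 eRPKM in the controls and 2.29, 2.11 and 1.72 at 7 days. Of 16 adult liver glucose enzymes, 13 of them abundant, 5 fell (31.25%). Of all abundant genes 25.1% were called lower, and of all tested genes 5.77%. Gys2, liver glycogen synthase, read 126, 93.98, 113 and 101 eRPKM in the controls and 23.7, 26.9 and 19.9 at 7 days, and Ppp1r3c, which targets a phosphatase to glycogen, fell by 2.57. G6pc, which releases glucose, and Pck1, of gluconeogenesis, fell by 2.11 and 1.09 (limma adjusted p = 0.000443 and 0.00521). Of 76 respiratory chain subunits, 48 of them abundant, 14 fell (18.4%, beside 25.1% of all abundant genes). The median of the 76 was -0.57, and 5 of the 14 lay more than 0.5 below control liver 2. Cytosolic ribosomal proteins had 1 fall and 0 rises of 79, and endoplasmic reticulum stress genes 1 rise of 23, that of Atf3. Clock genes had 3 falls and 0 rises of 17. Tat (-0.83 to -0.95) lost its call without control liver 1 or 3 or 7-day liver 1, 2 or 3 and Pck1 (-0.91 to -1.22) without control liver 3 or 7-day liver 1, 2 or 3 (limma adjusted p up to 0.0332). Tat (-0.25 to -1.14) did not pass with depth as a covariate, in a fit of female livers, with size factors, with quantile normalization, in a fit of the 7 livers alone or without the filter, Pck1 (-0.42 to -1.36) with depth as a covariate, with only the 2 deepest controls, in a fit of female livers, with size factors, with quantile normalization or in a fit of the 7 livers alone and G6pc (-1.87) with depth as a covariate or with only the 2 deepest controls (limma adjusted p up to 0.143). Fatty acid oxidation genes that fell numbered 9 with depth as a covariate or in female livers, 10 with only the 2 deepest controls, 23 after rescaling to moderate genes and 7 to 10 without 7-day liver 1, 2 or 3. Respiratory subunits that fell numbered 1 with depth as a covariate, with only the 2 deepest controls or in female livers, 8 with quantile normalization, 25 after rescaling to moderate genes, 0 to 8 without control liver 1, 3 or 4 or 7-day liver 1, 2 or 3 and 21 without control liver 2. Fat synthesis genes that fell numbered 7 with depth as a covariate or with only the 2 deepest controls. Glucose genes that fell numbered 3 with depth as a covariate or with only the 2 deepest controls. Clock genes that fell numbered 2 with depth as a covariate, 1 with only the 2 deepest controls or in female livers and 1 to 2 without control liver 1, 2, 3 or 4 or 7-day liver 1 or 3.

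Plasma protein genes are nearly all abundant, 43 of 46. Of the 46, 17 fell (37.0%, beside 25.1% of all abundant genes) and 0 rose, and the 3 under 300 reads per kilobase were among the 17. F11, coagulation factor XI, which is under 300 reads per kilobase, read 83.99, 53.3, 50.3 and 52.5 eRPKM in control livers 1 to 4 and 3.87, 2.11 and 5.86 in the 7-day livers, a log2 fold change of -3.83 (SE 0.28, limma adjusted p = 2.0e-06). The complement gene C8b fell from 127 eRPKM (SD 54.4, n = 4) to 20.1 (SD 5.84, n = 3). For the most abundant members depth and induction cannot be told apart. Alb read 336, 268, 535 and 918 eRPKM in the controls and 258, 234 and 254 at 7 days, the shallowest control being the highest and the deepest the lowest of the 4. Ttr, transthyretin, read 218, 173, 298 and 431 eRPKM in the controls and 104, 96.3 and 99.2 at 7 days, all 7-day livers below all controls (-1.40, limma adjusted p = 0.00110). Of 15 lipoprotein genes, 13 of them abundant, 4 fell (26.7%, beside 25.1% of all abundant genes) and 1 rose. Lipc, hepatic lipase, fell by 2.11 (limma adjusted p = 1.5e-05), and Pltp, the phospholipid transfer protein, rose by 2.33 (SE 0.42, limma adjusted p = 0.000948). In the growth hormone and IGF axis 5 of 16 fell, among them the growth hormone receptor Ghr (-1.94, limma adjusted p = 4.4e-05), Igf1 (-0.72, limma adjusted p = 0.00325) and the IGF-binding protein Igfbp2 (-2.80, limma adjusted p = 0.000120). Of 19 hepatocyte transcription factors 7 fell and 0 rose. The nuclear receptors Nr1i3 (CAR, a sensor of drugs) and Ppara (a regulator of fat oxidation) fell by 1.84 (SE 0.28, limma adjusted p = 0.000308) and 1.35 (SE 0.17, limma adjusted p = 7.0e-05). The defining factors were not called. Hnf4a read 156, 135, 165 and 181 eRPKM in the controls and 129, 116 and 129 at 7 days (-0.35, limma adjusted p = 0.0662), and Cebpa changed by -0.75 (SE 0.22, limma adjusted p = 0.0182). Igf1 (-0.66 to -0.73) lost its call without control liver 3 or 7-day liver 1 or 3 (limma adjusted p up to 0.0217). Igf1 (-0.26 to -0.70) did not pass with depth as a covariate, with only the 2 deepest controls, in a fit of female livers or with quantile normalization and Pltp (1.84) with depth as a covariate (limma adjusted p up to 0.105). Plasma protein genes that fell numbered 37 without control liver 2. Lipoprotein genes that fell numbered 2 in female livers and 9 without control liver 2.

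**Figure D4:**
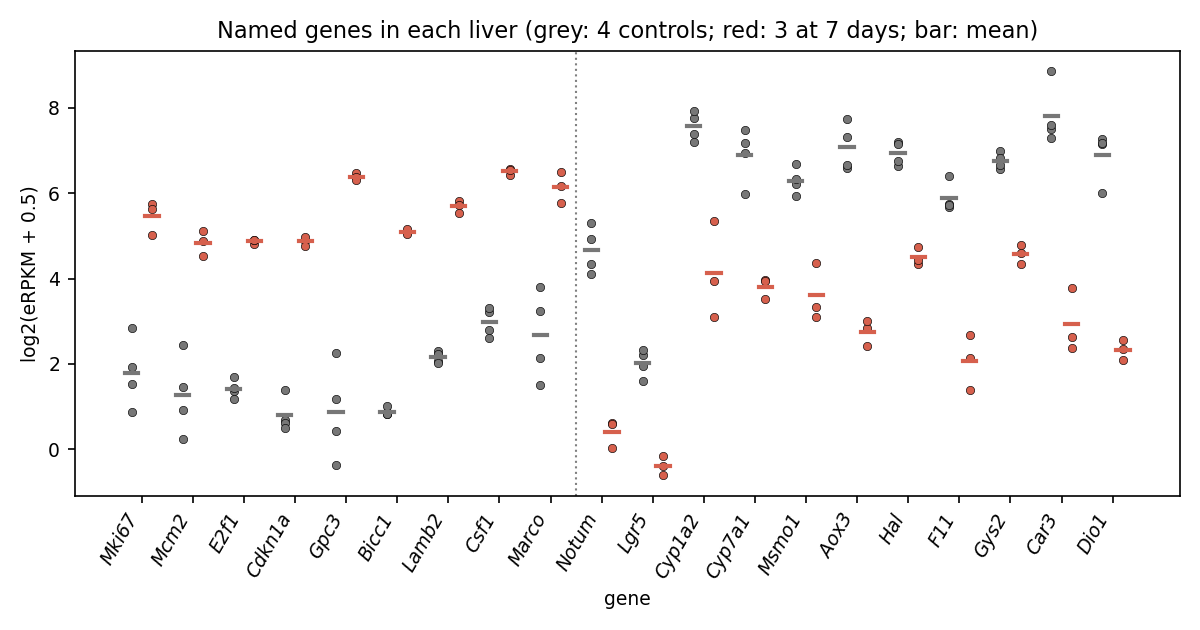
Log2(eRPKM + 0.5) of 20 named genes in each control liver (grey, n = 4) and 7-day liver (red, n = 3), with bars at the group means; genes left of the dotted line rose and those right of it fell. For each of the 20 genes the 7-day livers lie on one side of all controls.

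Among genes with a mean of at least 50 eRPKM the largest fall was that of Ces1f, a carboxylesterase with close relatives that may share its reads, which fell from 193 eRPKM (SD 63.9, n = 4) to 1.52 (SD 1.56, n = 3), a log2 fold change of -6.80 (SE 0.42, limma adjusted p = 5.9e-07). Genes of carbonic anhydrase and hormone metabolism were also among the large falls. Car3, carbonic anhydrase 3, read 181, 156, 192 and 464 eRPKM in control livers 1 to 4 and 13.1, 4.71 and 5.69 in the 7-day livers, a log2 fold change of -4.88 (SE 0.38, limma adjusted p = 3.0e-06). Dio1, the deiodinase that activates thyroid hormone, read 64.04, 142, 155 and 143 eRPKM in the controls and 4.57, 5.39 and 3.73 at 7 days, a log2 fold change of -4.57 (SE 0.29, limma adjusted p = 6.6e-07). Major urinary proteins, a family with nearly identical copies whose reads may be shared, fell in 8 of 14 tested members and rose in 0. Mup1 read 14.2, 8.58, 8.88 and 66.3 eRPKM in the controls and 0.333, 0.1498 and 0.671 at 7 days, and Mup17 49.98, 56.9, 76.2 and 227 eRPKM in the controls and 6.64, 2.23 and 4.09 at 7 days. Sex was not balanced between the groups. Of 17 male-biased liver genes 4 fell, and of 16 female-biased genes 0 fell and 0 rose. Between female livers, however, 10 female-biased genes fell and 0 rose, and of male-biased genes 2 fell and 2 rose. Female-biased genes summed to 1481 and 1634 eRPKM in the female controls, 102 and 81.6 in the male controls and 409 to 569.7 at 7 days, and 16 genes were summed. In the same fit the log2 fold changes were -4.51 for Car3, -4.89 for Dio1, -3.43 for Mup1 and -3.89 for Mup17 (limma adjusted p 1.1e-05 to 0.000178), with the 2 female controls read at 156 and 192 eRPKM for Car3 and 8.58 and 8.88 for Mup1. Among low genes with a mean of at least 1 eRPKM, the transcription factor gene Rfx4 fell from 2.58 eRPKM (SD 1.16, n = 4) to 0.203 (SD 0.275, n = 3), and Mrgprb2, a receptor gene of mast cells, had at most 1 read in any control and 17 to 58 in the 7-day livers. In all, 90 of the 2561 genes called higher had at most 3 reads in every control. Of the 822 called lower, 10 had at most 3 reads in every 7-day liver. Against the level of 3 reads per library, 9 of the 90 and 2 of the 10 differed at least 10-fold. Genes near 0 in the controls could pass the filter through the 7-day livers alone, and some of the 90 rest on few reads. Mir302b had 1 read in each 7-day liver. The 7-day libraries were deeper than most controls, and the part of depth in these counts was not tested. Mup1 (-3.03) did not pass with depth as a covariate (limma adjusted p = 0.0109). Major urinary proteins that fell numbered 4 with depth as a covariate. Male-biased genes that fell numbered 0 with depth as a covariate and 2 with only the 2 deepest controls, in female livers or without control liver 1 or 4 or 7-day liver 1, 2 or 3.

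Several enzymes, transporters and secreted proteins exist in a form typical of adult liver and a form of other or growing tissues, and 16 such pairs were compared. Of 29 tested glycolysis, pentose phosphate and serine genes 11 rose and 0 fell. Hk2, hexokinase 2, read 0.723, 1.12, 1.83 and 0.563 eRPKM in control livers 1 to 4 and 9.96, 8.11 and 12.3 in the 7-day livers, a log2 fold change of 2.82 (SE 0.32, limma adjusted p = 3.6e-05). Psat1, of serine synthesis, and Slc16a3, a lactate exporter, rose by 2.77 (SE 0.34, limma adjusted p = 6.0e-05) and 2.22 (SE 0.30, limma adjusted p = 0.000114). The log2 ratio of the other form to the adult liver form was taken in each liver. In 10 pairs all 7-day livers lay above all controls, control liver 2 included. In 1 pair, the branched-chain aminotransferases Bcat1 and Bcat2, they lay below, but Bcat1 did not pass the filter on low values, so that the pseudocount sets much of this ratio and nothing is read from it. The desaturases gave the largest difference, and the log2 ratio of Scd2 to Scd1 was -5.98, -5.52, -6.63 and -7.80 in control livers 1 to 4 and -2.08, -1.52 and -1.68 in the 7-day livers, a difference of 4.73 (exact permutation p = 0.0286). Scd2 rose by 3.19 (SE 0.23, limma adjusted p = 1.8e-06) and the abundant Scd1 fell by 1.54 (SE 0.33, limma adjusted p = 0.00269). For pyruvate kinase the log2 ratio of Pkm to Pklr was -2.62, -2.66, -2.70 and -1.91 in control livers 1 to 4 and -0.49, 0.24 and 0.30 in the 7-day livers, with means of -2.47 and 0.015 (exact permutation p = 0.0286). Pkm rose by 1.69 (SE 0.22, limma adjusted p = 8.1e-05), while Pklr changed by -0.80 (SE 0.25, limma adjusted p = 0.0220) and was not called. For glycogen synthase, Gys1 over Gys2 differed by 3.18, Gys2 falling by 2.18 (SE 0.22, limma adjusted p = 1.9e-05) and Gys1 changing by 0.99 (SE 0.34, limma adjusted p = 0.0364), which was not called. Pygb over Pygl, the glycogen phosphorylases, differed by 2.54, with Pygb at 1.65 (SE 0.25, limma adjusted p = 0.000260) and Pygl at -0.90 (SE 0.14, limma adjusted p = 0.000370). Hexokinase 2 over glucokinase differed by 2.77 (exact permutation p = 0.0571). The exact two-sided permutation test over 35 splits cannot go below 0.0286, and after Benjamini-Hochberg adjustment over the 16 pairs the lowest value was 0.0762, so no pair passed 0.05. Scd1 is among the most abundant genes, and the shallowest control had the lowest and the deepest the highest of the 4 control ratios in its pair. Scd1 (-1.27) lost its call without 7-day liver 2 (limma adjusted p up to 0.0192). Scd1 (-0.80 to -1.26) did not pass with depth as a covariate, with only the 2 deepest controls or in a fit of female livers (limma adjusted p up to 0.0254). Glycolysis genes that rose numbered 7 in female livers.

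**Figure D5:**
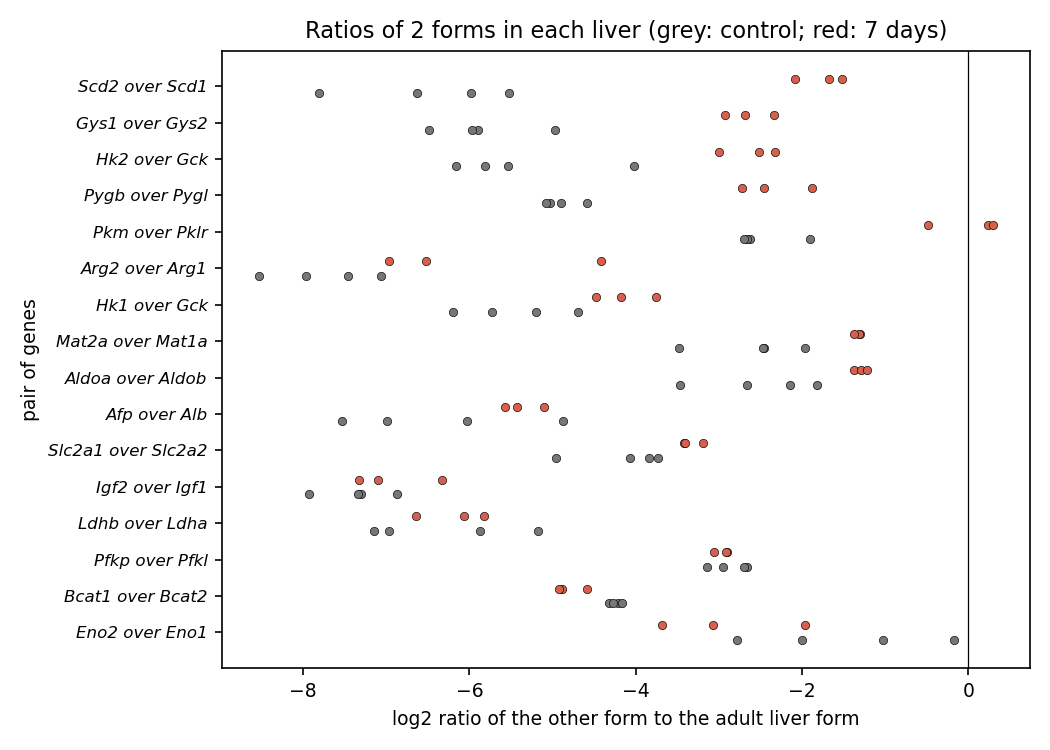
Log2 ratio of eRPKM of the other form to the adult liver form (horizontal axis) for 16 pairs of genes in each control liver (grey) and 7-day liver (red). The 7-day livers lie right of all controls in 10 pairs, with the largest difference for Scd2 over Scd1, and left of them for Bcat1 over Bcat2, where Bcat1 was too low to be tested.

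Livers after 3 days share these controls, and their values are set beside without a test. In eRPKM, the 4 livers at 3 days averaged 17.6 (SD 15.6) for Mki67, against 44.8 (SD 11.2) in the 3 at 7 days. Cdkn1a averaged 3.36 (SD 1.88) and 28.8 (SD 2.34), and Trem2 1.71 (SD 0.807) and 29.8 (SD 3.32). Among genes that fell, Cyp7a1 averaged 138 (SD 27.3) and 13.7 (SD 2.4), Notum 18.2 (SD 6.42) and 0.848 (SD 0.287), and Hal 83.3 (SD 16.5) and 22.3 (SD 3.29), against control means of 127, 26.3 and 124.

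Reads were counted without strand, and in GENCODE M1 on mm9 the exons of some named genes overlap those of another gene in the table, with which reads may be shared: Gins2 with Gse1, Nr1i3 with Tomm40l, Pltp with Ctsa, Pklr with Hcn3, Slc16a3 with Csnk1d, Ezr with Sytl3, Tnfrsf12a with Hcfc1r1, Dlk2 with Abcc10, Cd34 with Gm16897 and Gys1 with Ruvbl2. On mm9 Notum lies on chromosome 11, 120515102 to 120522489, minus strand, Cyp7a1 on chromosome 4, 6192759 to 6202780, minus strand, Csf1 on chromosome 3, 107543966 to 107563387, minus strand, Mki67 on chromosome 7, 142881471 to 142908062, minus strand and Cdkn1a on chromosome 17, 29227924 to 29237667, plus strand.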

How the data were processed

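Total RNA from whole mouse liver was sequenced from TruSeq libraries. Per the labels and the submitters' processing notes the authors aligned reads with TopHat2 2.0.8 to mm9, counted reads on exons with featureCounts 1.4.5-p1 and deposited RPKM values (eRPKM), 1 column per liver. Columns with the authors' DESeq2 means, log2 fold changes and adjusted p-values were deposited too and were not used. Neither the total used for scaling nor the treatment of duplicate reads is given in the sources used here, and 26 of 20893 rows carry names turned into dates. Whole reads were recovered from the steps of the eRPKM, and 100.0% of values above 0 lay within 0.1 of a whole read; limma-voom on these recovered counts, an alternative, called 2801 genes higher and 949 lower. The test was limma 3.58.1 (R 4.3.3) with a mean-dependent prior on log2(eRPKM + 0.5), a scale that understates changes of low genes, over all 11 livers, for genes that reached 0.5 eRPKM in 3 or more libraries. A call needed an adjusted p (Benjamini-Hochberg) under 0.01 and a log2 fold change beyond 0.5, and the fit was tested on simulated data with known changes. The 200 genes changed there excluded those with few reads. Reads were drawn in proportion to depth, with the same dispersion for every gene. Of the 200, 44.5% were called at a log2 change of 1, 93% at 1.5 and 100% at 2.5. These shares do not carry over to low genes, to abundant genes whose reads do not follow depth or to genes with a wider spread between livers. A gene with a change near 1 that was not called is thus weak evidence of no change. No gene averaged 500 eRPKM, the planned limit of the most abundant class, so 300 reads per kilobase was chosen after the data were seen. Genes were named as the largest calls of each abundance class, as the defining genes and up to 3 largest calls of each list and as members of the isozyme pairs, not all of which are printed; some results are not reported here. The comparison and its lists were chosen with earlier results of these data known. Intervals for the depth of single genes were not computed. The level of 3 reads is what a count of 0 allows for counting error. It was also used for genes with up to 3 reads, for which it is not such a limit, so folds against it are descriptions.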

Additional observations from a re-analysis of the deposited data

Results flagged for a closer look

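In 11 of 154 sets of 4 control values, 1 control stood far from the other 3, past the 95% limit of Dixon's test for the gap as a share of the range, and chance alone flags about 1 set in 20. Control liver 1 stood apart for F11 (0.911 of the range) and Dio1 (0.8603 of the range). Control liver 2 stood apart for Lama5 (0.924 of the range). Control liver 3 stood apart for Ect2 (0.9101 of the range). Control liver 4 stood apart for Tat (0.844 of the range), Col12a1 (0.851 of the range), Saa4 (0.884 of the range), Mup1 (0.903 of the range), Car3 (0.883 of the range) and Mup17 (0.852 of the range). It stood apart for the log2 ratio of Pkm to Pklr too, in control liver 4 (0.898 of the range). For the falls of Car3, Mup1, Mup17 and Saa4 the high control was the shallowest library, a male liver, and without it the log2 fold changes were -4.54 for Car3, -3.65 for Mup1, -3.76 for Mup17 and -2.45 for Saa4.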

How the results depend on the processing

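Of 113 named genes that passed, 89 passed in the same direction under every alternative run, and none changed direction; Hnf4a, which did not pass, went from -0.35 to 0.16 with quantile normalization. Genes called higher numbered 1099 with depth as a covariate, 1406 with only the 2 deepest controls, 1523 in female livers, 3969 at a looser threshold (adjusted p below 0.05, no fold limit) and 1588 to 2449 when each liver was left out in turn. Genes called lower numbered 1254 with median-ratio size factors, 1821 with quantile normalization, 1437 after rescaling to moderately expressed genes, 1421 at that threshold and 469 to 800 with livers left out. The median of moderate genes was 0.11, -0.049 and 0.093 under these scalings and 0.13 with depth as a covariate. That of abundant genes was -0.72, 0.011 and -0.74, -0.13 with depth as a covariate and -0.22 with the 2 deepest controls. List members called numbered 303 with depth as a covariate, against 499. The cause of these moves was not tested. A fit with the replicate block gave 2032 higher and 688 lower, but the numbers do not pair the livers, since deviations of same-numbered livers correlated at -0.036 to 0.069. With that block Ccl2 (2.89), Tat (-0.76) and Igf1 (-0.70) lost their calls (limma adjusted p 0.0125, 0.0218 and 0.0142). The class of at least 300 reads per kilobase and the differences from control liver 2 were chosen after the data were seen. The fits with the 2 deepest controls, in female livers or without a liver rest on fewer livers.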
